A study of Mus musculus with 8 samples.

Results

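The genes described here encode the engine of the replicative helicase: the ring subunits Mcm2, Mcm3, Mcm4, Mcm5, Mcm6 and Mcm7, the cofactor Cdc45, and the GINS subunits Gins1, Gins2 and Gins3. They were taken by gene symbol, 10 genes of the 49315 in the count table, and all 10 had enough reads to be tested. The remaining GINS subunit, Gins4, is given with the partners of the helicase. RNA was sequenced from E18.5 mouse hearts, late in gestation, with 4 wild-type (WT) hearts and 4 hearts homozygous for the M195I substitution in CHD4 (CHD4 M195I/M195I, called mutant below). CHD4 is an ATPase of the NuRD chromatin remodelling complex. No Cre, drug or further allele is named for either group, and no source used here gives the strain. Whole hearts mix all cardiac cell types, so fewer cells of a type and less RNA per cell cannot be told apart.

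A ring of Mcm2 to Mcm7 is loaded on origins in G1 by the origin recognition complex, Cdc6 and Cdt1, and is inactive at that point. In S phase the kinases Cdc7 and Cdk2, with their partner proteins, bring Cdc45 and GINS onto the ring, and the assembled helicase unwinds the DNA ahead of the polymerases. The genes of these proteins are known targets of E2F factors and are transcribed mostly from late G1 into S phase. The heart late in gestation still holds dividing cardiomyocytes and dividing non-muscle cells.

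Mouse promoter sequence from RefSeq (GRCm38.p6, 250 bases before to 50 after each start) was found for 7 of the 10 genes: Mcm2, Mcm3, Mcm5, Mcm6, Mcm7, Cdc45 and Gins3. Mcm4, Gins1 and Gins2 had no entry. An E2F-type motif was searched as TTTCCCGC, TTTCGCGC, TTTGCCGC or TTTGGCGC on both strands, and it was present for 5 of the 7 genes (71.4%), against 2.26% of all 32851 promoter windows and 2.60% of 27025 genes. Both backgrounds include genes that were not tested here. Among tested genes with promoter sequence, 525 held a match and 11201 did not. The sites of the 5 genes are printed because they are the letters through which the E2F family is known to bind. Each is 5′ to 3′ on the strand of the gene, the capitals mark the match, and positions count from the RefSeq start.
Mcm3, 20 to 27 after the start, chr1:20820280-20820299, minus strand: tccgtgGCGGGAAAacttgg
Mcm3, 39 to 46 after the start, chr1:20820263-20820280, minus strand: ggaagtTTTGGCGCcaag
Mcm5, position -153 to -142, chr8:75109350-75109373, plus strand: aagaacTTTCGCGCCAAAacgtcc
Mcm6, position -110 to -99, chr1:128359798-128359821, minus strand: tatgctTTTGGCGCGAAAagtgcg
Mcm6, position -47 to -40, chr1:128359739-128359758, minus strand: gacgggTTTGGCGCgaagta
Mcm7, position -165 to -158, chr5:138172035-138172054, minus strand: cgaaccGCGGGAAAcagggt
Mcm7, 17 to 24 after the start, chr5:138171854-138171873, minus strand: acgacgTTTCGCGCcaattt
Gins3, position -41 to -34, chr8:95633512-95633531, plus strand: tgcggcGCGGGAAAgcgagt
The longer runs of capitals in Mcm5 and Mcm6 are overlapping matches on opposite strands. The Mcm7 and Gins3 sites lie inside the span of those genes in GENCODE M21, whose starts are farther upstream than the RefSeq ones. Mcm2 and Cdc45 had no match in their windows, and neither had another RefSeq window of Mcm7.

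The CCAAT box (CCAAT on either strand), which the factor NF-Y is known to bind, was present in windows of 7 of 7 genes (100%), against 37.4% of all windows and 41.1% of all genes. These backgrounds also include genes that were not tested. The sequence before the start of Mcm6 is shown because it holds both motifs, each more than a single time, and Mcm6 had the highest level of the 10 genes per length. It lies at chr1:128359706-128359955 on the minus strand, upstream of the annotated gene, with E2F-type and CCAAT or ATTGG letters in capitals.
Mcm6 upstream: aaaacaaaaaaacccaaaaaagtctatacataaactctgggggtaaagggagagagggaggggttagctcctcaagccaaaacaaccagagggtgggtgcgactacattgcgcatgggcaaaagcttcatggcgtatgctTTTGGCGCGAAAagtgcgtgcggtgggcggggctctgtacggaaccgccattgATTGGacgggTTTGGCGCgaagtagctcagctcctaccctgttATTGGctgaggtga
A match describes the letters in a window and is neither evidence of binding nor a cause of any level below.

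In mutant hearts, transcripts of 9 of the 10 helicase genes rose and none fell. The rises ran from 19.7% for Mcm3 to 41.4% for Mcm5, and the tenth gene, Gins2, did not pass the test. Across all 16372 genes tested, 5.75% were called higher and 7.49% lower at a Benjamini-Hochberg adjusted p under 0.05 in edgeR's quasi-likelihood test. The median log2 fold change (mutant minus WT) of the 10 genes was 0.41, against 0.00 for all genes tested, whose quartiles were -0.11 and 0.11. For 9 of 10 genes every mutant heart lay above every WT heart, which held for 8.77% of all genes tested.

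The libraries were of like depth, from 18375951 to 20815388 assigned counts in WT and from 18673488 to 21341235 in mutants, and single helicase genes had 157 to 3003 counts per library. Levels are given as CPM (each count relative to library size) after TMM scaling, and replicate order is 1 to 4 within each genotype. The p-values set the difference between genotypes against the spread between hearts of the same genotype. Nothing in the labels ties replicates to litters, so differences between litters may enter that comparison. Chd4 itself (chromosome 6, 125095981 to 125130591, the same chromosome as Mcm2) averaged 451.7 ± 6.38 CPM in WT hearts against 481.5 ± 8.52 CPM in mutant hearts (SD, n = 4, as for all means below), a log2 fold change of 0.09 ± 0.03 (SE; adjusted p = 0.094). Gene counts do not show the substituted base, so they do not check the genotype labels. The count columns of the 8 single-library tables have headings that begin with "Male". Y-linked RNA was present in all 8 libraries, at 101 CPM summed in WT replicate 4 and at 203 to 215 CPM in every other library. Xist stood at 1.25 to 1.56 CPM in WT and at 1.55 to 1.98 CPM in mutants. Both were taken on library totals without TMM. The Xist ranges barely overlap, so the fit with Xist as a covariate, given below, cannot separate its level from genotype.

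Airway RNA differed between libraries within each genotype. Scgb3a2, a secretoglobin of airway epithelium, stood at 388.3, 0.848, 439.2 and 179.3 CPM in WT and at 6.38, 0.325, 279.6 and 482.1 CPM in mutants. WT replicate 2 and mutant replicates 1 and 2 were thus nearly free of it. Of the 10 helicase genes, 9 were called higher among the libraries with at least 10 CPM of Scgb3a2 (3 WT, 2 mutants). In the libraries under 10 CPM 7 were called, where a lone WT heart was assumed to vary like the others.

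Mcm2 (chromosome 6, 88883474 to 88898780, minus strand in GRCm38) encodes a ring subunit whose tail carries parental histones and which forms the gate of the ring with Mcm5. Its level was 80.6, 87.6, 97.2 and 83.8 CPM in WT and 109.0, 118.0, 116.8 and 110.9 CPM in mutants. The lowest mutant heart was above the highest WT heart. Mcm2 rose from 87.3 ± 7.18 to 113.7 ± 4.40 CPM, a log2 fold change of 0.38 ± 0.05 (SE; 95% interval 0.27 to 0.49; adjusted p = 0.00032).

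The other gate subunit, Mcm5 (chromosome 8, 75109569 to 75128439, plus strand), had the largest log2 fold change of the 10 genes. WT hearts had 52.4, 54.4, 61.5 and 58.9 CPM, and mutant hearts had 73.5, 83.9, 84.5 and 79.2 CPM. The gap between the genotypes was wider than the range within either one. The mean went from 56.8 ± 4.16 to 80.3 ± 5.11 CPM, with a log2 fold change of 0.50 ± 0.06 (interval 0.38 to 0.62; adjusted p = 8.2e-05).

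Mcm3 (chromosome 1, 20802968 to 20820312, minus strand) encodes the subunit through which the loader with Cdc6 first holds the ring. It was measured at 65.3, 73.2, 76.6 and 75.3 CPM in WT and at 86.0, 91.6, 86.3 and 83.6 CPM in mutants. The groups did not overlap, and the rise was the smallest of the 6 ring genes. From 72.6 ± 5.05 CPM the mean rose to 86.9 ± 3.40 CPM, a log2 fold change of 0.26 ± 0.05 (interval 0.15 to 0.37; adjusted p = 0.0032).

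Mcm4 and Mcm6 are among the genes of ring subunits whose tails are phosphorylated by the Cdc7 kinase when the helicase is activated. Mcm4 (chromosome 16, 15623897 to 15637400, minus strand) stood at 53.0, 53.4, 56.6 and 55.8 CPM in WT and at 77.2, 74.2, 70.7 and 72.8 CPM in mutants. Both groups were tight, and the gene had the smallest adjusted p of the 10. Its mean rose from 54.7 ± 1.74 to 73.7 ± 2.76 CPM, a log2 fold change of 0.43 ± 0.04 (interval 0.34 to 0.52; adjusted p = 2.6e-05). Mcm6 (chromosome 1, 128331590 to 128359664, minus strand), which also binds Cdt1 during loading, was at 93.2, 99.6, 107.3 and 97.1 CPM in WT and at 125.8, 139.5, 139.2 and 131.8 CPM in mutants. Its lowest mutant heart was well above the highest WT heart. The change from 99.3 ± 5.97 to 134.1 ± 6.60 CPM was a log2 fold change of 0.43 ± 0.05 (interval 0.33 to 0.54; adjusted p = 5.9e-05).

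Mcm7 (chromosome 5, 138164583 to 138172422, minus strand) encodes the subunit that is ubiquitylated when the helicase is taken off DNA. Levels were 80.1, 86.0, 92.1 and 85.3 CPM in WT and 104.8, 129.1, 115.2 and 116.8 CPM in mutants. Mutant replicate 1 was the lowest of its group and still above every WT heart. Mcm7 rose from 85.9 ± 4.89 to 116.5 ± 9.98 CPM, a log2 fold change of 0.44 ± 0.06 (interval 0.31 to 0.57; adjusted p = 0.0005). All 6 ring genes thus passed the test, with a median log2 fold change of 0.43.

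**Figure D1:**
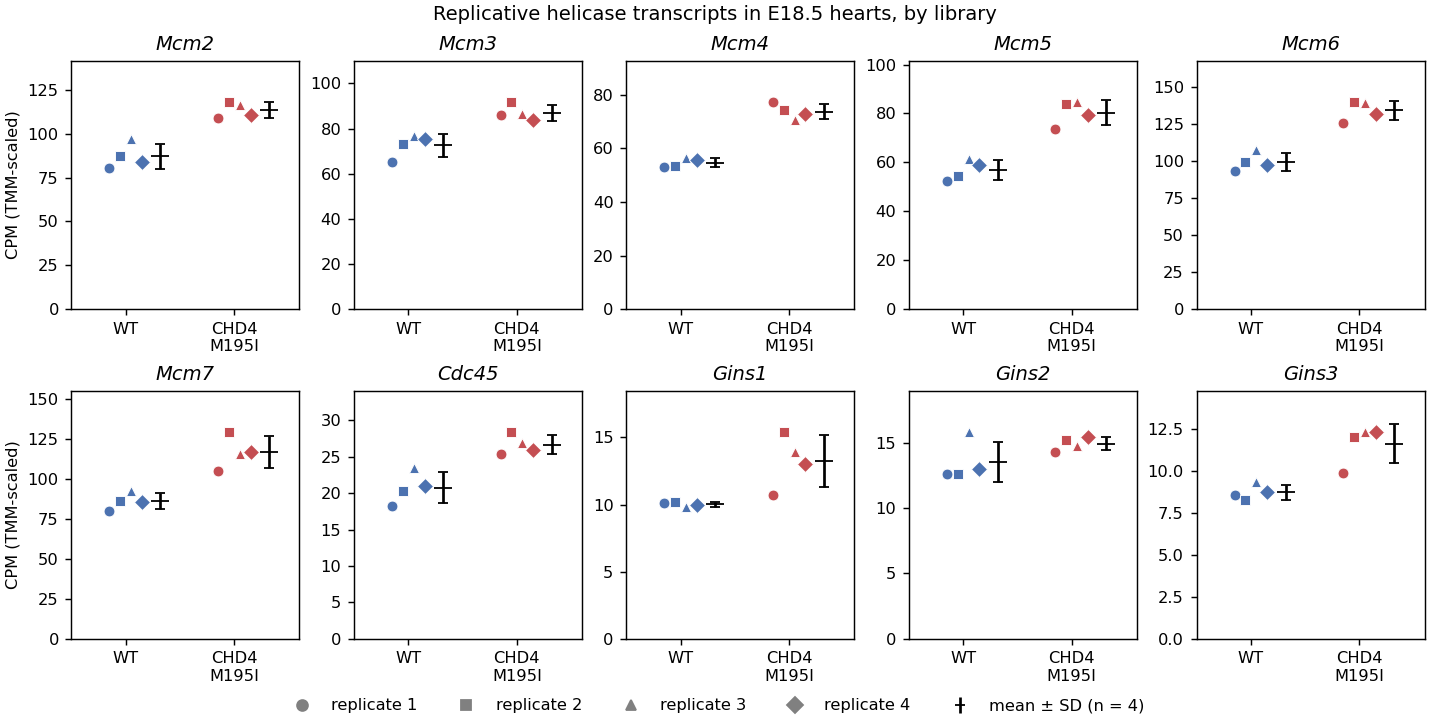
Level of each helicase gene in every heart (CPM after TMM scaling, vertical axes starting at 0), with WT and mutant replicates as separate points and bars for the mean ± SD. The 2 genotypes are apart for every gene except Gins2, where WT replicate 3 at 15.8 CPM is above all mutant hearts.

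Cdc45 (chromosome 16, 18780447 to 18811987, minus strand) encodes the cofactor that joins the ring at the start of S phase and is often limiting for origin firing. It stood at 18.3, 20.3, 23.5 and 21.0 CPM in WT and at 25.4, 28.4, 26.9 and 26.0 CPM in mutants. The gap between groups was narrow, and WT replicate 3 was the nearest to the mutants. Cdc45 rose from 20.8 ± 2.15 to 26.7 ± 1.32 CPM, a log2 fold change of 0.36 ± 0.07 (interval 0.21 to 0.51; adjusted p = 0.0041).

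GINS subunits hold Cdc45 to the ring and link it to polymerase epsilon. Gins1 (PSF1; chromosome 2, 150905400 to 150931280, plus strand) had 10.1, 10.2, 9.78 and 9.99 CPM in WT and 10.7, 15.4, 13.9 and 13.0 CPM in mutants. WT hearts were nearly equal, whereas mutant hearts were spread, with mutant replicate 1 close to WT. The SD was 0.166 CPM in WT hearts against 1.98 CPM in mutant hearts, and the mean rose by 32.5% to 13.2 CPM, a log2 fold change of 0.41 ± 0.10 (interval 0.19 to 0.62; adjusted p = 0.015). Gins3 (PSF3; chromosome 8, 95633453 to 95645060, plus strand) was at 8.58, 8.28, 9.33 and 8.71 CPM in WT and at 9.86, 12.0, 12.3 and 12.3 CPM in mutants. Again mutant replicate 1 was the lowest mutant heart, and the groups did not overlap. The rise from 8.73 ± 0.443 to 11.6 ± 1.17 CPM was a log2 fold change of 0.41 ± 0.09 (interval 0.22 to 0.61; adjusted p = 0.0079). Among the libraries with under 10 CPM of Scgb3a2 neither call was kept (adjusted p = 0.25 for Gins1 and 0.17 for Gins3), with log2 fold changes of 0.37 and 0.41. With the level of Xist, which nearly follows genotype, as a covariate both calls were also lost (adjusted p = 0.39 and 0.36), at 0.33 and 0.32.

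Gins2 (PSF2; chromosome 8, 120578633 to 120589304, minus strand) was the exception. WT hearts had 12.6, 12.6, 15.8 and 13.0 CPM and mutant hearts had 14.3, 15.2, 14.7 and 15.4 CPM. All mutant hearts lay above 3 of the WT hearts and below WT replicate 3. The means were 13.5 ± 1.54 and 14.9 ± 0.491 CPM, with a log2 fold change of 0.14 ± 0.08 (interval -0.04 to 0.32; adjusted p = 0.32). Without WT replicate 3 the log2 fold change was 0.23 (adjusted p = 0.072). The interval of Gins2 lies partly within those of Gins1 and Gins3, and the difference between the subunits was not tested. Gins4 (SLD5), the subunit outside the 10, also missed the threshold, with 19.9 ± 1.84 CPM in WT hearts against 22.1 ± 2.74 CPM in mutant hearts (log2 fold change 0.15 ± 0.09, interval -0.05 to 0.34, adjusted p = 0.35).

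Neighbouring and overlapping genes bear on these counts, since no source used here says whether reads were counted by strand. Exons of Gse1 on the opposite strand cover 67.3% of the exonic bases of Gins2 (2758 of 4097), and reads there cannot be told apart without strand. Gse1 stood at 49.5 ± 2.09 and 53.5 ± 2.29 CPM (log2 fold change 0.11, adjusted p = 0.15). Mcm7 shares 7.25% of its exonic bases with Ap4m1 and 1.45% with Cops6, and Cdc45 shares 9.28% with Ufd1. The miRNA genes Mir25 and Mir93 lie within Mcm7 exons and had no counts. Mcm2, Mcm3, Mcm4, Mcm5, Mcm6, Gins1 and Gins3 share no exonic base with another gene.

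Several helicase genes start head to head with a gene on the other strand. Prkdc, which encodes the catalytic subunit of the DNA-dependent protein kinase, starts 466 bases from Mcm4. It rose from 18.4 ± 1.90 to 25.1 ± 0.951 CPM (log2 fold change 0.45 ± 0.07, adjusted p = 0.00085), with no overlap between groups. The other head-to-head genes did not pass the test. Log2 fold changes were 0.14 for Ap4m1 (420 bases from Mcm7, adjusted p = 0.11) and 0.08 for Ufd1 (208 bases from Cdc45, adjusted p = 0.31). They were 0.07 for Abhd12 (659 bases from Gins1, adjusted p = 0.43) and 0.41 ± 0.26 for Gm10614 (227 bases from Gins2, adjusted p = 0.35). Of the 4 risen helicase genes with such a neighbour, Mcm4 had a neighbour that rose as well, and Mcm7, Cdc45 and Gins1 had neighbours that were not called.

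Summed over the 10 genes, the helicase made up 474.1 to 549.6 CPM in WT and 636.5 to 707.3 CPM in mutants. Each mutant heart had all 10 genes above the WT mean, by an average log2 difference of 0.27, 0.45, 0.39 and 0.36 for replicates 1 to 4. WT hearts varied together as well, at -0.09, -0.02, 0.11 and 0.00. WT replicate 1 was the lowest WT heart for 8 of 10 genes and WT replicate 3 the highest for 9. Among mutants, replicate 1 was the lowest for 8 genes, all but Mcm3 and Mcm4, and the highest for Mcm4, and replicate 2 was the highest for 6.

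Levels between genes were compared per kilobase of the principal transcript, as CPM per kb. In WT the order was Mcm6 34.1 ± 2.05, Mcm7 29.0 ± 1.65, Mcm2 25.9 ± 2.13, Mcm3 24.0 ± 1.67, Mcm5 16.8 ± 1.23 and Mcm4 15.2 ± 0.485 CPM per kb. Below the ring genes came Cdc45 at 9.69, Gins1 at 9.20, and Gins2 and Gins3 at 3.46 each. Neighbours Mcm2 and Mcm3, Cdc45 and Gins1, and Gins2 and Gins3 differed by less than their spread. The ring subunits, which sit in the complex in equal number, spanned 2.24-fold in WT RNA level and 2.25-fold in mutants. In mutants the levels were 46.1 for Mcm6, 39.3 for Mcm7, 33.7 for Mcm2, 28.7 for Mcm3, 23.7 for Mcm5 and 20.5 CPM per kb for Mcm4, the same order. The order depends on the length used. Divided by all annotated exonic bases, Mcm2 was at 12.5 CPM per kb in WT, under Mcm3 at 19.3, Mcm4 at 15.2 and Mcm5 at 14.2. Mcm2 was then the lowest ring gene and Mcm6, at 21.3, the highest. The 2.24-fold span thus holds for the principal transcripts and is narrower by exonic bases. The Gins2 level was divided by its full length, though 67.3% of its exonic bases are shared with Gse1. If reads were counted without strand, it cannot be compared with the other levels.

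**Figure D2:**
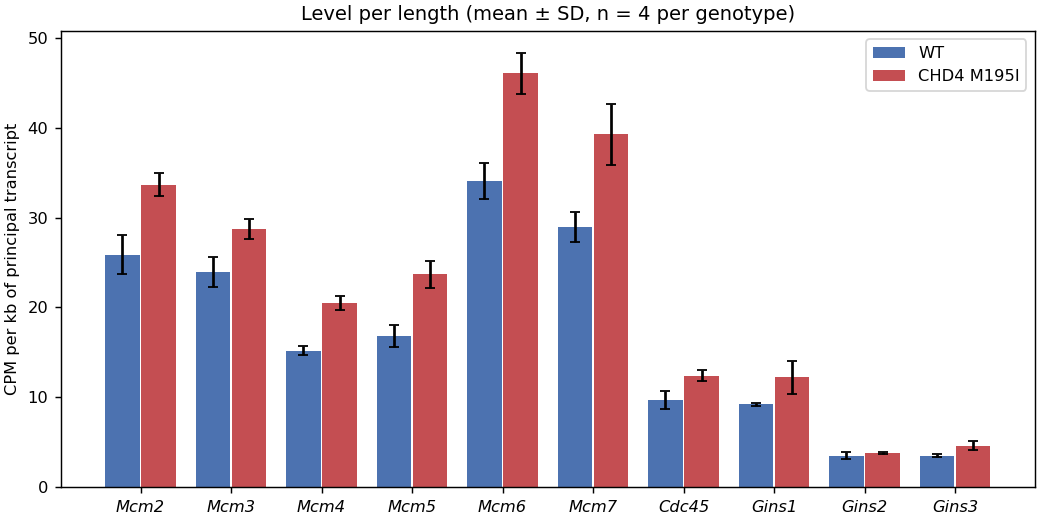
Level of each helicase gene per kilobase of principal transcript (CPM per kb, axis starting at 0) in WT and mutant hearts, as means with SD bars over 4 hearts. The 6 ring genes lie above Cdc45 and the GINS genes in both genotypes. The Gins2 bars carry the limit of its exon overlap with Gse1.

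Of the 9 genes that load the ring, 3 were called higher and none lower, with a median log2 fold change of 0.22. Cdt1, which carries the ring to the origin, rose from 28.1 ± 2.06 to 39.9 ± 2.42 CPM (log2 fold change 0.50 ± 0.06, adjusted p = 0.00011). Cdc6, the loading ATPase, rose from 14.1 ± 0.772 to 20.4 ± 0.745 CPM (0.54 ± 0.07, adjusted p = 0.00012). Among the origin recognition subunits Orc6 passed the test (0.22 ± 0.06, adjusted p = 0.034), and it shares 6.93% of its exonic bases with Vps35. The other 5 Orc genes and Gmnn, the inhibitor of Cdt1, did not pass. With library totals in place of TMM 5 loading genes were called.

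Of the 12 genes that activate the ring, 8 were called higher and none lower, with a median log2 fold change of 0.29. Topbp1, the scaffold on which Cdc45 and GINS are brought to the ring, rose from 85.0 ± 3.69 to 105.7 ± 6.38 CPM (0.31 ± 0.05, adjusted p = 0.0005). Mcm10, which is needed for the assembled helicase to start unwinding, rose from 12.2 ± 0.899 to 15.7 ± 0.211 CPM (0.37 ± 0.07, adjusted p = 0.0041). The kinase side held Ccne1, a cyclin of Cdk2 (0.44 ± 0.09, adjusted p = 0.0046), and the kinase Cdc7 (0.25 ± 0.06, adjusted p = 0.0082). Dbf4, the activating subunit of Cdc7, was at 0.04 ± 0.06 (adjusted p = 0.77), an uncalled gene picked after its value was seen. The count of 8 fell to 3 among libraries with at least 10 CPM of Scgb3a2, to 2 among those under 10 CPM and to 1 with Xist as a covariate.

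Partners that travel with the helicase had 8 of 11 genes called higher and none lower, with a median log2 fold change of 0.37. Wdhd1, which couples the helicase to polymerase alpha, rose from 18.6 ± 0.735 to 26.9 ± 1.61 CPM (0.53 ± 0.06, adjusted p = 7.8e-05). Timeless, of the fork protection complex, rose from 24.4 ± 1.99 to 33.8 ± 1.15 CPM (0.47 ± 0.06, adjusted p = 0.00016). The polymerase epsilon subunits Pole2 and Pole, which GINS contacts, had log2 fold changes of 0.54 ± 0.10 (adjusted p = 0.0017) and 0.37 ± 0.07 (adjusted p = 0.0019). The count of 8 fell to 4 among libraries under 10 CPM of Scgb3a2 and to 3 with Xist as a covariate.

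Genes that chaperone or remove the helicase did not pass the test, 0 of 9 in either direction. The shares over all genes tested were 5.75% higher and 7.49% lower. The median log2 fold change of the 9 was 0.11. At an unadjusted p under 0.05, 5 were higher and 0 lower, among them Mcmbp, which binds Mcm subunits before they form a ring and stood at 67.8 ± 2.58 and 73.2 ± 2.69 CPM (0.11 ± 0.04, adjusted p = 0.11). DESeq2 and limma-voom also called none of the 9, and library totals called 3 higher. Mcm8 and Mcm9, relatives that work in recombination rather than in the ring, were at 0.15 ± 0.09 (adjusted p = 0.32) and -0.09 ± 0.06 (adjusted p = 0.35), and Mcmdc2 had too few counts to be tested.

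**Figure D3:**
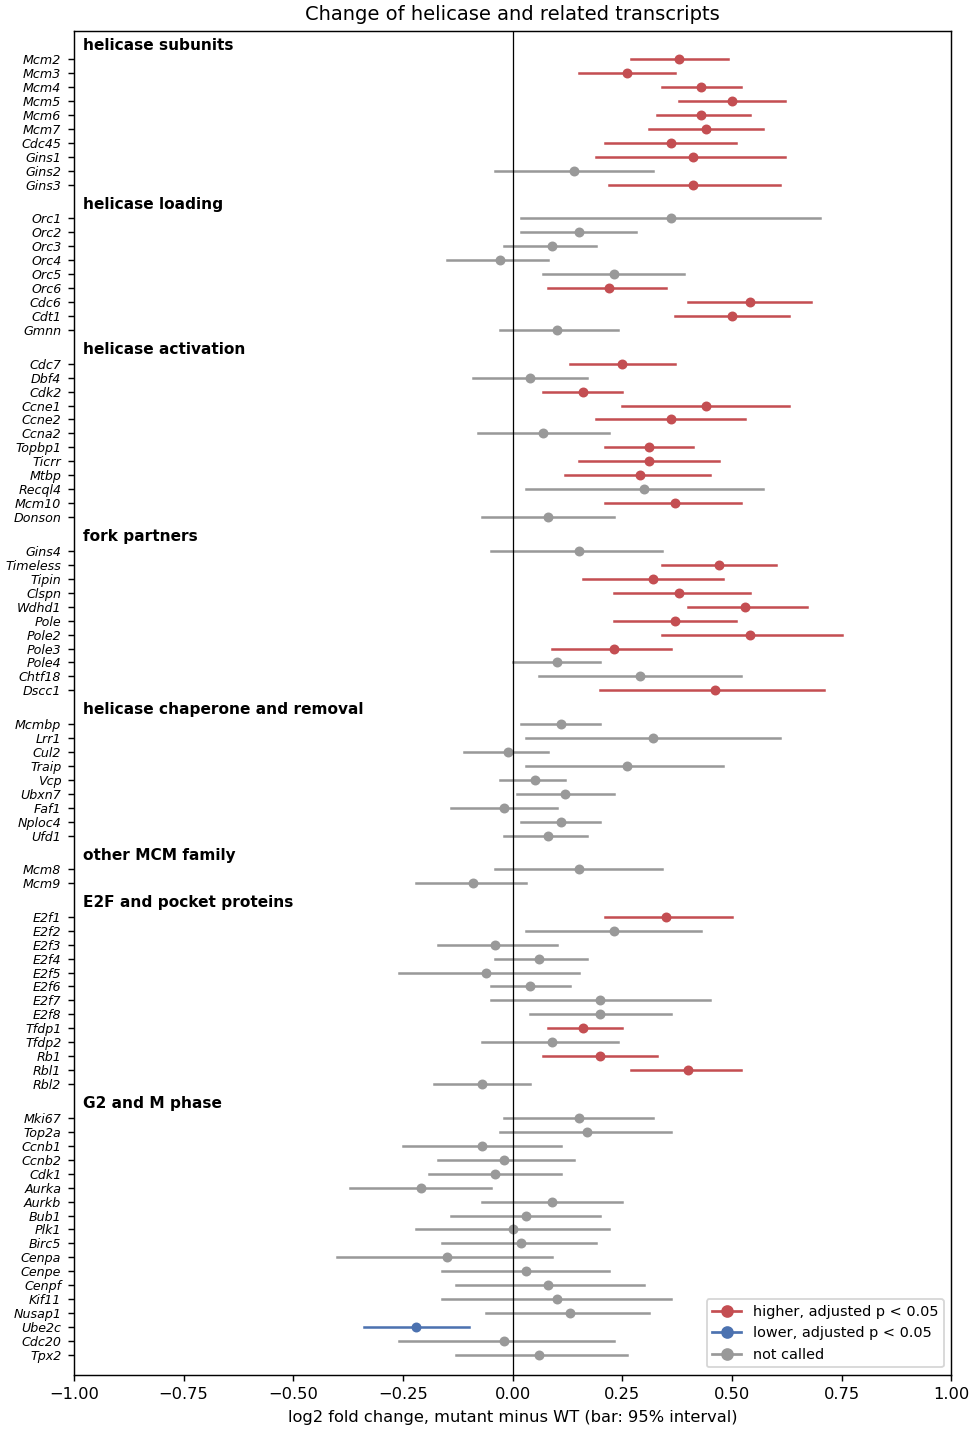
Log2 fold change (mutant minus WT) of every tested gene in the helicase and its partner lists, as points with 95% intervals, with called genes marked apart from the rest. The helicase genes other than Gins2 lie between 0.26 and 0.50, and the genes of chaperone and removal, none of them called, lie between -0.02 and 0.32.

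E2F and pocket protein genes, whose products are known to set the S-phase transcription of the helicase genes, had 4 of 13 called higher and none lower, with a median log2 fold change of 0.16. Rbl1, the pocket protein p107, rose from 34.5 ± 2.94 to 45.4 ± 1.57 CPM (0.40 ± 0.06, adjusted p = 0.00046). E2f1, an activating factor, rose from 38.3 ± 3.48 to 48.9 ± 3.39 CPM (0.35 ± 0.07, adjusted p = 0.0032). Smaller rises were measured for the E2F partner Tfdp1 (0.16 ± 0.04, adjusted p = 0.015) and for Rb1 (0.20 ± 0.06, adjusted p = 0.044). Rb1 shares 8.11% of its exonic bases with Rcbtb2 and 6.78% with Lpar6. Without WT replicate 1, or in either set of libraries formed by Scgb3a2, 2 of the 13 were called, and 1 with Xist as a covariate.

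Genes of G2 and M phase, a later stage of the same cycle, had 0 of 18 called higher and 1 called lower. The shares over all genes tested were 5.75% higher and 7.49% lower. The median log2 fold change of the 18 was 0.02. At an unadjusted p under 0.05, 0 were higher and 2 lower, and DESeq2 and limma-voom also called 0 higher and 1 lower. Ube2c, the ubiquitin-conjugating enzyme of the anaphase-promoting complex, fell from 96.2 ± 4.22 to 82.6 ± 7.28 CPM (-0.22 ± 0.06, adjusted p = 0.022), and lost its call without WT replicate 2, 3 or 4, without mutant replicate 3, with library totals in place of TMM and with Xist as a covariate. Ube2c shares 22.8% of its exonic bases with Tnnc2, which stood at 0.0948 CPM on average. Mki67 and Top2a, chosen after their values were seen as common marks of cycling cells, had log2 fold changes of 0.15 ± 0.08 and 0.17 ± 0.09 (adjusted p = 0.26 each). Without mutant replicate 1, 2 genes of the list were called higher and 1 lower. Without the low count filter 2 were called higher and 2 lower.

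Mutant hearts differed from each other in the G2 and M genes. The mean log2 level relative to WT was -0.23, 0.18, -0.04 and 0.09 in mutant replicates 1 to 4. Mutant replicate 1 was the lowest mutant heart for 18 of 18 of these genes and replicate 2 the highest for 18 of 18. In mutant replicate 1, none of the 18 genes was above the WT mean while all 10 helicase genes were. The helicase genes also had their lowest and highest mutant averages in replicates 1 and 2 (0.27 and 0.45).

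**Figure D4:**
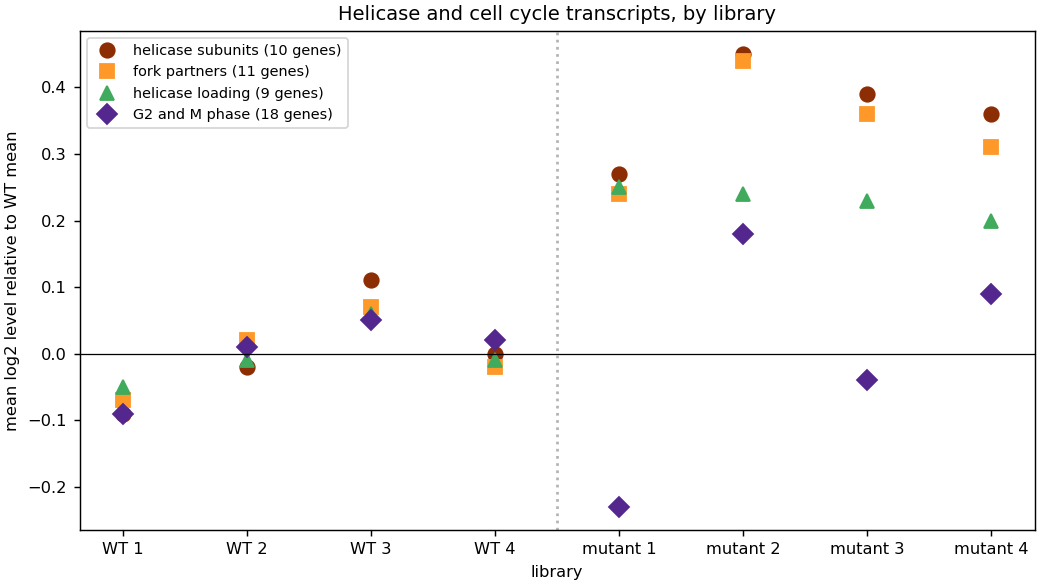
Mean log2 level of the helicase genes, fork partners, loading genes and G2 and M genes in every heart (horizontal axis) relative to the WT mean, with 1 point per list and heart. For the helicase genes all 4 mutant hearts (0.27 to 0.45) are above all WT hearts (-0.09 to 0.11), whereas for the G2 and M genes mutant hearts range from -0.23 to 0.18 around the WT hearts.

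The search for like profiles covered 14683 other genes averaging 1 CPM or more. Those whose profile over the 8 libraries was nearest to the mean profile of the helicase genes were Ncapg2, Topbp1, Dnmt1, Mcm10 and Atad2. Likeness was the root mean square distance between centred log2 profiles, from 0.0323 for Ncapg2 to 0.05 for Atad2. Within the helicase itself the distance ran from 0.0365 for Mcm2 to 0.105 for Gins1 and 0.129 for Gins2. Ncapg2, a condensin II subunit, had 35.4, 36.3, 41.2 and 36.5 CPM in WT and 43.1, 49.4, 49.6 and 46.7 CPM in mutants. Dnmt1, the maintenance DNA methyltransferase, was at 143.0 ± 8.51 and 175.0 ± 7.12 CPM. Atad2, a bromodomain ATPase, was at 55.7 ± 3.05 and 72.1 ± 4.05 CPM. The groups overlapped for none of these 5 genes, which is a description since likeness to the helicase chose them.

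Markers of the cell types in the heart were read beside these results. The cardiomyocyte genes Tnnt2, Myh6, Ryr2, Actn2 and Nkx2-5 were abundant in all libraries, summing to 23038.8 to 25513.6 CPM in WT and 18742.1 to 23823.6 CPM in mutants, and 1 of 5, Actn2, was called lower. Called lower were also 1 of 5 endothelial markers (Kdr), 2 of 5 fibroblast markers (Tcf21 and Postn) and 2 of 4 epicardial markers (Msln and Upk1b). Of 5 myeloid markers 1, Lyz2, was called higher, the list summing to 49.9 to 61.4 CPM in WT and 53.8 to 71.3 CPM in mutants. No smooth muscle marker passed. The 4 lymphoid markers summed to at most 2.11 CPM, too low to be tested. Erythroid markers summed to 866.6 to 1610.6 CPM in WT and 536.8 to 877.9 CPM in mutants, with 0 of 4 called and a median log2 fold change of -0.75. At an unadjusted p under 0.05, 2 of the 4 were lower, Hba-a1 and Alas2, and their groups did not overlap. The share of all genes with every mutant heart below every WT heart was not counted. By the same p, 2 of 5 cardiomyocyte, 3 of 5 endothelial, 2 of 5 fibroblast and 3 of 4 epicardial markers were lower. No smooth muscle marker was, and 1 of 5 myeloid markers was higher. Airway and lung markers spanned 1.95 to 495.8 CPM in WT and 0.976 to 759.8 CPM in mutants, with 0 of 7 called. The part of these cell types in the rise of the helicase genes was not tested.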

How the data were processed

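Per the labels' protocols, total RNA of dissected hearts went into libraries made with a TruSeq RNA kit. Trimmomatic 0.36, STAR 2.5.2b and featureCounts of Subread 1.5.2 are named with GRCm38/mm10 in the submitters' processing notes, and no source used here gives the annotation release or the strand setting. The authors deposited raw read counts per gene, both singly for each library and joined in a table, and 0 values differed between the 2 forms. Symbols came from GENCODE M21 for 48970 of 49315 genes.

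The 8 libraries were grouped by genotype label. Genes were filtered with filterByExpr (minimum count 10), scaled by TMM and tested with edgeR 4.0.16 (R 4.3.3; robust quasi-likelihood fit, genotype only), with Benjamini-Hochberg adjustment over 16372 genes and a threshold of 0.05. The code was tested on simulated data, with genes of all tested levels and 1 dispersion for all. It recovered 44% of changes of 1.3-fold, 66% of 1.5-fold and 95.8% of 2-fold. A gene that was not called may thus still have changed by such small folds. DESeq2 1.42.0, limma-voom (limma 3.58.1), other scalings and filters, omission of each library, a replicate block and covariates were the alternatives. The biological coefficient of variation was 0.0908, and each helicase gene had at least 157 counts in every library.

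The 10 genes, the gene lists and the tests were chosen with earlier results of these data known. Named genes are the 10 helicase genes, up to 4 called genes of each list by adjusted p, uncalled direct partners of the helicase, overlapping or head-to-head neighbours (starts within 1000 bases), the 5 nearest profiles (log2 with a pseudocount of 0.5) and Chd4. Sequences are from RefSeq (GRCm38.p6).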

Additional observations from a re-analysis of the deposited data

Results flagged for a closer look

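Each helicase gene was checked in each genotype for a heart standing apart from the other 3 of its group, by the gap to its nearest neighbour over the whole range (Dixon's 95% critical value, 20 checks). Chance gives about 1 such heart in 20 groups, and 2 were found. For Gins2, WT replicate 3 at 15.8 CPM stood above the other WT hearts at 12.6 to 13.0 CPM, and this heart alone makes the genotypes overlap for Gins2. Without it the log2 fold change of Gins2 was 0.23 (adjusted p = 0.072), against 0.14 with it. For Gins3, mutant replicate 1 at 9.86 CPM stood below the other mutant hearts at 12.0 to 12.3 CPM.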

How the results depend on the processing

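The log2 fold change of all 10 helicase genes was positive in each of 22 alternative fits. Mcm2 to Mcm7 and Cdc45 passed the threshold in all 22, Gins1 and Gins3 in 20, and Gins2 in none (adjusted p = 0.072 to 0.59). Across 23 alternatives, the stricter threshold included, 7 to 9 helicase genes were called higher and 0 lower, with 9 in each fit that left out 1 heart. Over all genes, 942 were called higher and 1226 lower. Leaving out each heart in turn gave 579 to 850 higher and 899 to 1137 lower, the fewest higher (579) without WT replicate 1. Library totals gave 1856 higher, which raised the higher share of calls from 43.5% to 68.4% and the median of all genes from 0.00 to 0.05. Xist as a covariate gave 140 higher and 186 lower, in a fit where the covariate nearly follows genotype. Libraries with at least 10 CPM of Scgb3a2 gave 609 higher, and those under 10 CPM, chosen after seeing the data, 595 higher and 812 lower. An adjusted p under 0.01 gave 392 higher and 644 lower, because of the stricter threshold. Fewer samples entered the fits without a heart and the fits by Scgb3a2, and the cause of the other shifts was not tested. Whether replicate numbers pair the hearts was mixed (correlations of same-numbered deviations -0.516, 0.774, 0.562 and 0.102). The mutant heart most like WT replicates 2 and 4 had their own number, and that of WT replicates 1 and 3 did not. A replicate block gave 1023 higher and 1432 lower with 9 helicase genes higher.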

Other observations

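Among tested genes with RefSeq promoter sequence, 525 held an E2F-type match, of which 76 (14.5%) were called higher, and 11201 held none, of which 644 (5.75%) were called higher. The median log2 fold changes were 0.05 and 0.00. For the lists around the helicase, an E2F-type match was present for 4 of 8 loading genes with sequence, 2 of 8 activation genes, 3 of 7 fork partners and 1 of 16 G2 and M genes. It was also present for 2 of 8 chaperone and removal genes, a list with 0 called, and for 5 of 10 E2F and pocket protein genes, a list with 4 of 13 called. The CCAAT box was present for 14 of 16 G2 and M genes (87.5%), a list in which 0 genes were called higher. These are counts of letters in windows, with no test.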
